A study of Mus musculus with 6 samples.

Results

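The catecholaminergic, sympathoadrenal-type program described here comprises 10 genes of the E10.5 mouse gut: Th, Dbh, Ddc and Gch1 of catecholamine and cofactor synthesis, the vesicular transporters Slc18a1 and Slc18a2, the degrading enzyme Maoa, and the transcription factors Gata2, Hand2 and Insm1. They were taken by symbol from a deposited table of 23233 usable gene lines, and all 10 had a line of their own that the authors had tested, among 13430 tested lines. The guts were Ret null, that is homozygous for a null allele of the receptor tyrosine kinase gene Ret (3 samples), or wildtype (3 samples). Both genotypes are labelled C57BL/6J and staged E10.5, and the series calls the embryos male. The levels of sex-linked genes given below go against that label for Ret null gut. The labels do not describe the null allele, and they do not say whether a sample was 1 gut or a pool.

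The table holds 1 FPKM value per genotype (fragments mapped to a gene, scaled to its length and to library size) and no value per sample. Every FPKM value below is therefore the authors' value for a genotype, without a spread, and read depth is unknown. The words rose, fell and changed are kept for genes whose q in the authors' deposited table lay under 0.05, and fold changes are Ret null over wildtype. An error after ± is a standard error, obtained by dividing the log2 fold change by the authors' test statistic. The authors' p can be smaller than a normal reading of that statistic gives, as for Hand2 below. An interval from this error can therefore include no change for a called gene. Changed genes had q = 0.000775 in the authors' deposited table, the smallest there, unless another q is given. That q belongs to the smallest p in the authors' deposited table, 5e-05, which 867 tested lines share. It therefore does not rank the genes that have it. Ret itself stood at 0.0354 FPKM in Ret null gut, against 8.80 FPKM in wildtype gut (q = 0.0042 in the authors' deposited table).

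Noradrenergic cells make their transmitter in a short chain. Tyrosine hydroxylase (Th), which needs the tetrahydrobiopterin cofactor that Gch1 starts to build, converts tyrosine to L-DOPA. Aromatic amino acid decarboxylase (Ddc) turns this into dopamine, vesicular transporters load dopamine into vesicles, and dopamine beta-hydroxylase (Dbh) converts it there to noradrenaline. Sympathetic neurons and adrenal chromaffin cells, both derived from the neural crest, run this program in the mature animal. In the developing mouse gut, some crest-derived neuronal precursors switch on Th and Dbh for a time before they take on other transmitters.

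Of the 10 genes, 5 fell in Ret null gut (Dbh, Th, Slc18a2, Insm1 and Gata2), 1 rose (Hand2) and 4 did not pass (Slc18a1, Gch1, Maoa and Ddc). Across all tested lines 14.6% were called, 8.88% lower and 5.69% higher in Ret null gut. Among the 10262 tested lines with a mean FPKM within the range of the 10 genes, 14.1% were called, 8.8% lower and 5.35% higher. Under stricter rules the 5 falls stayed at q under 0.01, where 9.81% of all tested lines were called, 6.1% lower and 3.72% higher. They also stayed with a 1.5-fold minimum, where 8.62% were called, 5.23% lower and 3.4% higher. A p was also read from the authors' test statistic as if it were normally distributed and adjusted over all tested lines (the normal p below): it called 4.5% of lines, 2.78% lower and 1.72% higher, and 4 of the 10 genes, all lower. Hand2 was not called under any of these stricter rules. The median log2 fold change was -0.69 over the 10 genes and 0.01 over all tested lines. The genes were chosen with earlier results of these data known, so these shares describe them and do not test the group. Gut RNA was measured in bulk, so fewer cells of a type and less RNA per cell cannot be told apart.

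**Figure D1:**
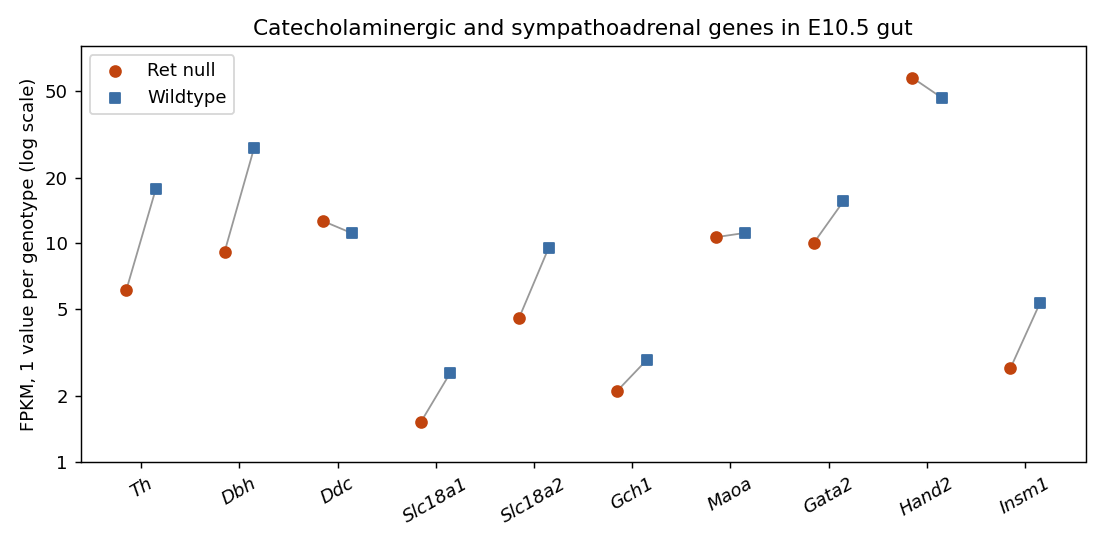
FPKM on a log axis (vertical) of the 10 genes (horizontal), 1 authors' value per genotype with no spread, Ret null as circles and wildtype as squares joined by a line. Th, Dbh, Slc18a2, Gata2 and Insm1 lie lower in Ret null gut, Hand2 lies higher, and the values of Maoa are 10.7 and 11.2 FPKM.

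The levels spanned a wide range in both genotypes. In Ret null gut the order on the FPKM scale, high to low, was Hand2, Ddc, Maoa, Gata2, Dbh, Th, Slc18a2, Insm1, Gch1 and Slc18a1. In wildtype gut it was Hand2, Dbh, Th, Gata2, Maoa, Ddc, Slc18a2, Insm1, Gch1 and Slc18a1. Dbh and Th were thus the fifth and the sixth gene in Ret null gut and the second and the third in wildtype gut. With no spread over samples, it could not be tested which neighbours in these orders differ.

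The largest falls were in the enzymes that define the noradrenergic pathway. Dbh stood at 9.13 FPKM in Ret null gut, against 27.2 FPKM in wildtype gut, a log2 fold change of -1.58 ± 0.23. Th, the rate-limiting enzyme, stood at 6.12 FPKM in Ret null gut, against 17.7 FPKM in wildtype gut (-1.53 ± 0.27). Both therefore kept about 34 percent of their wildtype level, 33.5% for Dbh and 34.5% for Th. Among all tested lines 165 had a log2 fold change as low as that of Dbh or lower, and 175 as low as that of Th. The FPKM ratio of Dbh to Th was 1.49 in Ret null gut and 1.54 in wildtype gut, and their log2 fold changes differed by -0.04 ± 0.36 (standard error of the difference, taking the errors as independent). The Dbh line covers the annotated gene on chromosome 2, 27165507 to 27183204 (mm10). The Th line lies on chromosome 7, 142892776 to 142899966, where RefSeq ends the gene at 142899995.

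Ddc, the enzyme between them in the chain, did not follow this pattern. It stood at 12.7 FPKM in Ret null gut and 11.1 FPKM in wildtype gut (0.19 ± 0.23, q = 0.498 in the authors' deposited table), with a 95% interval of -0.26 to 0.64 from the implied error. The FPKM ratio of Th to Ddc was 0.483 in Ret null gut and 1.59 in wildtype gut. The log2 fold change of Th lay 1.72 below that of Ddc, with a difference of -1.72 ± 0.35, and that of Dbh lay further still from it (-1.76 ± 0.32). Ddc is also known from cells that make no catecholamines, among them gut epithelial and endocrine cells and kidney tubules. Gut epithelium markers moved in the same tissue: 12 of 14 tested members rose, their summed level was 369.8 FPKM in Ret null gut and 189 FPKM in wildtype gut, and none of them was listed at 0 (summed levels here and below cover every listed gene with a line, tested or not). Among them Krt8, a keratin gene, rose 2.26-fold and Foxa2, an endoderm transcription factor, 5.37-fold. The part of these cells in the value of Ddc was not tested. The Ddc line also spans the noncoding gene 1700042O10Rik, which was listed at 0.288 FPKM in Ret null gut and 0.322 FPKM in wildtype gut.

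Letters before the gene starts are shown for the 3 falling genes of synthesis and storage and for Ddc, to set beside each other the start regions of genes that moved together and of one that did not. They are RefSeq promoter windows of GRCm38.p6, the build that mm10 names, from 200 bases before to 10 bases after the annotated start, given 5′ to 3′ on the gene's strand. Windows were found for 8 of the 10 genes, with 2 starts each for Ddc and Gata2. Capitals mark matches to TGACGTCA, the cyclic AMP response element, and to ATTA, the core bound by homeodomain factors such as Phox2a, on either strand. Th (chr7:142899986-142900195, minus strand), Dbh (chr2:27165307-27165516, plus strand), Slc18a2 (chr19:59260678-59260887, plus strand), and the upstream start of Ddc (chr11:11898135-11898344, minus strand) and its downstream start (chr11:11890399-11890608, minus strand) read:
Th: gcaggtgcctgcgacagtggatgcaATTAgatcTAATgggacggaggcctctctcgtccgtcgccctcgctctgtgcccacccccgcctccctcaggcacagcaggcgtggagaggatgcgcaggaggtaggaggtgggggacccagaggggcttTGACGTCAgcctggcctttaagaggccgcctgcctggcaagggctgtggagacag
Dbh: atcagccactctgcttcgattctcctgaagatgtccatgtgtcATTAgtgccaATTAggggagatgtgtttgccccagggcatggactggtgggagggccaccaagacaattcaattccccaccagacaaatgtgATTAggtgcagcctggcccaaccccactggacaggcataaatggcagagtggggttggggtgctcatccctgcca
Slc18a2: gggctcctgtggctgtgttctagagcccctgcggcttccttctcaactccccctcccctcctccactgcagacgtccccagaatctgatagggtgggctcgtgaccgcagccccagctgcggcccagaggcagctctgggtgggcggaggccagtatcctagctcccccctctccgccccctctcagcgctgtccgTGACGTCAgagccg
Ddc upstream start: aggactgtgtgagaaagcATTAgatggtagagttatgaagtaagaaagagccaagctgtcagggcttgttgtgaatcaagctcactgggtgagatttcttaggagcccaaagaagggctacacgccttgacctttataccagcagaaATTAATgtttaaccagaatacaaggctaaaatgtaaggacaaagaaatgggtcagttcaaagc
Ddc downstream start: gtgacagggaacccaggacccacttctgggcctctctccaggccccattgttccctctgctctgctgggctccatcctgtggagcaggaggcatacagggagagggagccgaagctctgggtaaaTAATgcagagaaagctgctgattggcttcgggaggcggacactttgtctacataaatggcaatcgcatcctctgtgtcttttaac

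The full TGACGTCA stood in the windows of Th, where it begins 45 bases before the start, and of Slc18a2, where it spans the start from 4 bases before it. It was in 1.6% of all 32851 RefSeq windows of this length and in no other window of the 10 genes. ATTA matched 3 times in the Dbh window, 2 times in that of Th, 3 times at the upstream Ddc start, with 1 overlapping pair, and 1 time at the downstream one, and 47.9% of all windows hold it. The E-box core CANNTG, bound by bHLH factors such as Hand2, matched 2 times in the Dbh window and 1 time in those of Th and Slc18a2, against 60.1% of all windows with a match. GATA matched 2 times in the Slc18a2 window, in no window of Th, Dbh or Ddc, and in 46.7% of all windows. Of the windows not printed, that of Maoa held 4 GATA matches and 1 E-box match, and that of Gch1 held 1 GATA match. That of Hand2 held 4 ATTA matches, with 1 overlapping pair, and 1 GATA match. None of these motifs matched in the windows of Gata2, which fell. The motifs were chosen with these letters in view, and a match is a description and not a binding site. The single Ddc line covers both starts, chromosome 11, 11814101 to 11898144, so its FPKM value sums transcripts from either.

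Among the transporters that load monoamines into vesicles, Slc18a2 (VMAT2) fell. It stood at 4.58 FPKM in Ret null gut, against 9.55 FPKM in wildtype gut (-1.06 ± 0.23), and its line covers the annotated gene on chromosome 19, 59260878 to 59296012. Its fall was not separable from that of Th by their errors, the difference of Th minus Slc18a2 being -0.47 ± 0.36. Slc18a1 (VMAT1), the form typical of adult chromaffin and enteroendocrine cells, had the lowest level of the 10 genes. It stood at 1.53 FPKM in Ret null gut and 2.57 FPKM in wildtype gut (-0.75 ± 1.10, q = 0.638 in the authors' deposited table). Its 95% interval of -2.91 to 1.42 includes the change of Slc18a2 as well as no change. The deposited locus of Slc18a1, chromosome 8, 69037708 to 69113717, is the same as that of its neighbour Atp6v1b2, which stood at 39.4 FPKM in Ret null gut and 43.8 FPKM in wildtype gut. Lines that share a locus had wider errors: from 1 to 5 FPKM their median was 0.51 for 573 such lines, against 0.38 for 2779 other lines.

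Gch1, GTP cyclohydrolase 1, starts the synthesis of the cofactor that Th uses. It stood at 2.12 FPKM in Ret null gut and 2.94 FPKM in wildtype gut (-0.47 ± 0.36, unadjusted p = 0.0404 and q = 0.183 in the authors' deposited table) and did not pass. Maoa, the mitochondrial monoamine oxidase that degrades noradrenaline and serotonin, stood at 10.7 FPKM in Ret null gut and 11.2 FPKM in wildtype gut (-0.07 ± 0.19, q = 0.848 in the authors' deposited table). Its 95% interval was -0.44 to 0.31, so among the 10 genes its change had the second narrowest error after that of Hand2. The log2 fold change of Th lay below it by -1.47 ± 0.33. Maoa lies on the X chromosome, 16619698 to 16687812, and sex-linked genes differed between the genotypes. Xist, which silences an X chromosome in female cells, stood at 31.8 FPKM in Ret null gut and 0.136 FPKM in wildtype gut, and the Y-linked genes Ddx3y, Eif2s3y, Kdm5d and Uty fell by log2 fold changes of -0.78, -0.71, -0.92 and -0.99 (these genes were named after their values were seen). These values go against the male label for Ret null gut, so sex and genotype are not separate in this comparison. With no value per sample, it is unknown which samples this concerns. The part of the sex difference in the value of Maoa was not tested.

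The enzymes and cofactor genes around the members mostly did not pass. In a list of 20 genes of catecholamine and biopterin metabolism, 5 of them among the 10, 19 were tested: 3 fell, 4 rose and 12 did not pass, and the median change was -0.03 on the log2 scale. Besides Dbh and Th the faller was Moxd1, a homologue of Dbh (-0.53 ± 0.22, q = 0.00372 in the authors' deposited table). The risers included 1 degrading enzyme and 2 genes of the cofactor branch. Maob, the other monoamine oxidase, rose by 0.86 ± 0.33 to 4.80 FPKM in Ret null gut, against 2.65 FPKM in wildtype gut (q = 0.00263 in the authors' deposited table). Pcbd1, which recycles the cofactor, rose by 0.57, and Spr, which completes its synthesis, rose by 0.36. Their q was 0.0117 for Pcbd1 and 0.0325 for Spr in the authors' deposited table. With the normal p, Dbh and Th were the only calls in this list. Pnmt, which converts noradrenaline to adrenaline and was named after its value was seen, stood at 0.0419 FPKM in Ret null gut and 1.38 FPKM in wildtype gut, but its error was too wide to call it (-5.04 ± 3.45, q = 0.45 in the authors' deposited table).

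Of 8 listed monoamine transporters, 2 of them the program genes Slc18a1 and Slc18a2, 5 were tested and 3 were not. Slc18a2 was the only call, and the median change, with both program genes included, was -0.62 on the log2 scale. The tested genes outside the program did not pass and were named after their values were seen. Their log2 fold changes were -0.62 ± 0.54 for Slc6a4, -0.02 ± 0.17 for Slc6a6 and 0.17 ± 0.32 for Slc29a4. The noradrenaline transporter Slc6a2, which takes released transmitter back into the cell, was among those not tested, at 0.17 FPKM in Ret null gut and 0.435 FPKM in wildtype gut (named after its value was seen).

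**Figure D2:**
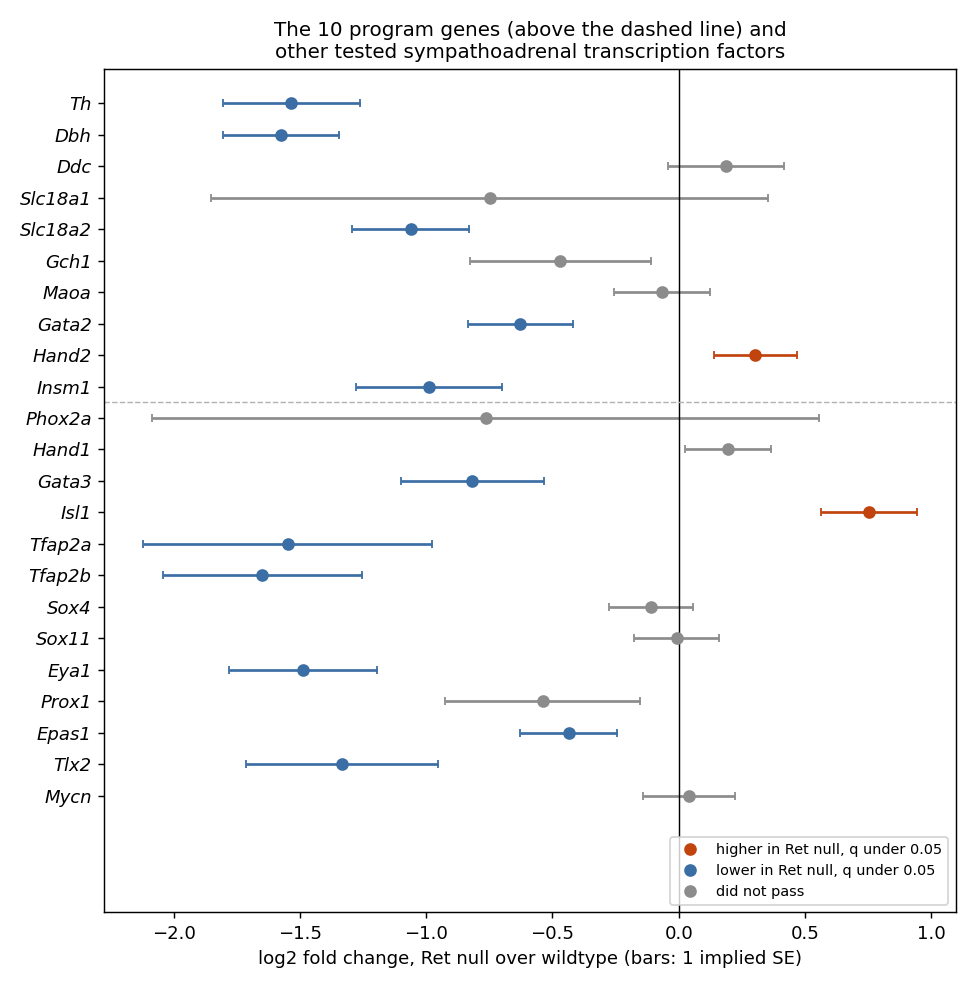
Log2 fold change of Ret null over wildtype (horizontal) for the 10 genes, above the dashed line, and for other tested genes of the list of sympathoadrenal transcription factors, with bars of 1 implied standard error. Blue marks genes lower and red genes higher at q under 0.05, and grey genes that did not pass, among them Slc18a1 and Phox2a with errors of 1.10 and 1.32.

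The 3 transcription factors went in different directions. Insm1, a zinc finger factor needed for the proliferation and differentiation of sympathoadrenal precursors in the mouse, stood at 2.68 FPKM in Ret null gut, against 5.32 FPKM in wildtype gut (-0.99 ± 0.29). It lies on chromosome 2, 146221997 to 146225018. Endocrine precursors of pancreas and gut also use Insm1. Of 10 tested pancreatic and enteroendocrine markers 5 rose and 2 fell, their summed level was 90.6 FPKM in Ret null gut and 61.1 FPKM in wildtype gut, and Pax4 and Ins1 were listed at 0 in wildtype gut. The glucagon gene Gcg rose 2.55-fold, and the part of endocrine cells in the value of Insm1 was not tested.

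Gata2, which acts in sympathetic neurons and also in endothelium and blood progenitors, fell to 10.1 FPKM in Ret null gut, against 15.6 FPKM in wildtype gut (-0.63 ± 0.21). Read from the authors' test statistic, its normal p no longer passed (adjusted p = 0.0545). Gata3, its relative that mouse sympathetic neurons need to make noradrenaline, fell as well, to 3.11 FPKM in Ret null gut, against 5.49 FPKM in wildtype gut (-0.82 ± 0.28), and its normal p from the authors' test statistic did not pass either (adjusted p = 0.0757). The difference of Gata2 minus Gata3 was 0.19 ± 0.35. Of 10 endothelial markers, all tested, 3 fell and 7 did not pass, with a summed level of 175 FPKM in Ret null gut and 207 FPKM in wildtype gut. The endothelial genes Emcn and Tek had log2 fold changes of -0.62 and -0.47, while Cdh5 stood at -0.05 and did not pass. With the normal p no endothelial marker was called. Of 10 tested erythroid and haematopoietic markers 4 rose and 2 fell, with a summed level of 3743 FPKM in Ret null gut and 5972 FPKM in wildtype gut. The fallers were the embryonic globin genes that make up most of this sum, Hba-x at 627 FPKM in Ret null gut and 1408 FPKM in wildtype gut (-1.17 ± 0.15) and Hbb-y at 3070.3 FPKM in Ret null gut and 4532 FPKM in wildtype gut (-0.56 ± 0.20, q = 0.00468 in the authors' deposited table). Without both globin genes the sum was 46.1 FPKM in Ret null gut and 32.7 FPKM in wildtype gut. The risers included Gata1, a factor of red cell precursors, at 1.78, and Kit at 0.42 (q = 0.00263 for Kit in the authors' deposited table). None of these endothelial and blood markers was listed at 0, and their part in the value of Gata2 was not tested. The Gata2 line runs on chromosome 6 from 88198664 to 88207032 and begins exactly at the downstream of 2 RefSeq starts, while RefSeq begins the gene at 88193891. Ret lies 29.9 Mb away on the same chromosome.

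Hand2, a bHLH factor that noradrenergic differentiation requires in the mouse, was the highest of the 10 genes and the 1 that rose. It stood at 57.3 FPKM in Ret null gut and 46.4 FPKM in wildtype gut (0.30 ± 0.16, q = 0.0296 in the authors' deposited table). Its 95% interval from the implied error, -0.02 to 0.63, includes no change. Its call ended at q under 0.01 and with the normal p from the authors' test statistic (adjusted p = 0.537). The gene lies on chromosome 8, 57320983 to 57324517. Gut mesenchyme expresses Hand2 too, and 10 of 13 tested mesenchyme markers rose, with a summed level of 963 FPKM in Ret null gut and 457 FPKM in wildtype gut and none listed at 0. Foxf1, a mesenchymal target of hedgehog signals, rose 2.43-fold, Acta2, the smooth muscle actin gene, 2.06-fold, and Barx1, a factor of stomach mesenchyme, 24.5-fold. Their part in the rise of Hand2 was not tested.

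The wider list of sympathoadrenal transcription factors fell more often than it rose. Of 20 listed genes, 3 of them among the 10, 18 were tested: 10 fell, 2 rose and 6 did not pass, and the median change was -0.70 on the log2 scale. Tfap2b (-1.65), Tfap2a (-1.55), Eya1 (-1.49), Tlx2 (-1.33) and Epas1 (-0.44) were among those that fell, with q = 0.00318 for Tfap2a and q = 0.00263 for Epas1 in the authors' deposited table. Isl1, a LIM homeodomain factor also found in gut mesenchyme and pancreas, rose to 25.8 FPKM in Ret null gut, against 15.3 FPKM in wildtype gut (0.75 ± 0.19). Phox2a, a homeodomain factor of autonomic neurons, was at 4.25 FPKM in Ret null gut and 7.22 FPKM in wildtype gut and did not pass (-0.76 ± 1.32), and its deposited locus is shared with Inppl1. The normal p called 6 genes of the list lower and 1 higher.

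The Th to Tubb3 ratio, Tubb3 being a pan-neuronal tubulin gene, was 0.886 in Ret null gut and 0.746 in wildtype gut, a difference of 0.25 ± 0.37.

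**Figure D3:**
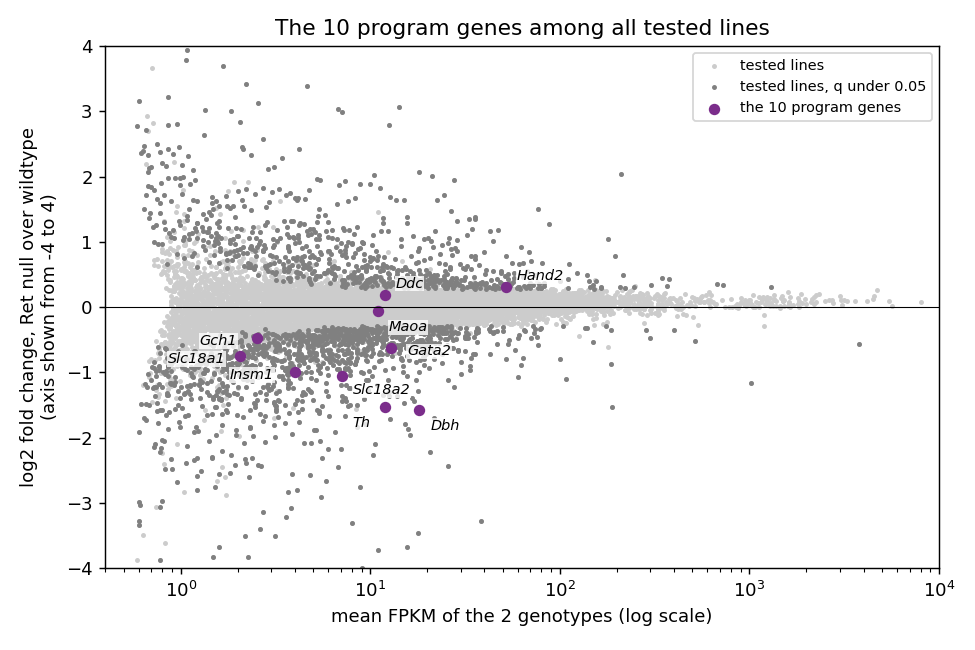
Log2 fold change of Ret null over wildtype (vertical) against the mean FPKM of the 2 genotypes (horizontal, log axis) for all tested lines with a value above 0 in both, with the 10 genes named. Dark grey marks lines with q under 0.05; 41 lines lie beyond the vertical axis, and Th and Dbh lie among the lower lines at their level while Ddc and Maoa lie within the uncalled band.

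Genes that sympathetic neurons and chromaffin cells express beside the members were mostly lower. Of 25 listed products 21 were tested: 14 fell, 2 rose and 5 did not pass, and the median change was -0.98 on the log2 scale. Chrna3 and Chrnb4, subunits of the nicotinic receptor through which such cells receive cholinergic input, fell by log2 fold changes of -2.60 ± 0.47 and -2.59 ± 0.54. The granule protein gene Chga fell by -0.64, and its relative Chgb, named after its value was seen, by -0.67. The 3 most abundant genes of the list went otherwise: Cpe, a prohormone processing enzyme, rose by 0.29 (q = 0.0443 in the authors' deposited table), and Dlk1 and Pam stood at 0.13 and 0.18 and did not pass. The other riser was the enkephalin precursor gene Penk (1.36 ± 0.27), named after its value was seen. The normal p called 9 of them lower and 1 higher.

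**Figure D4:**
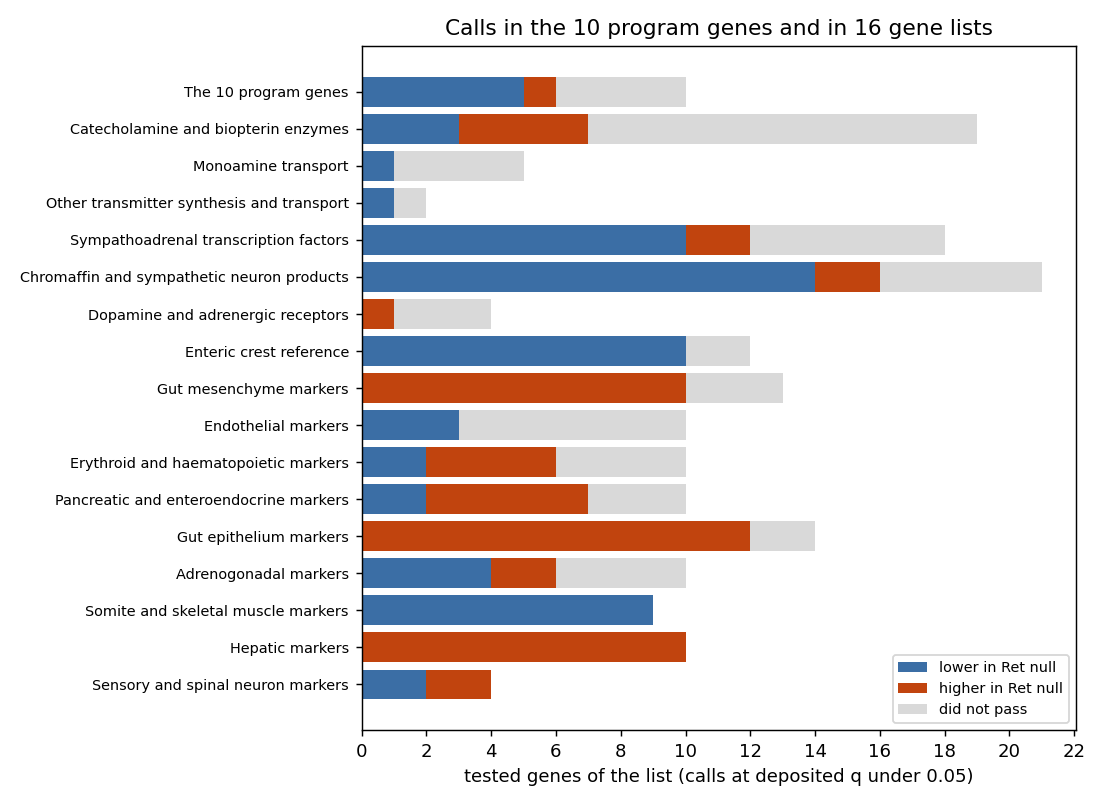
Number of tested genes (horizontal) in the 10 program genes and in each of 16 gene lists (vertical), split into lower in Ret null gut, higher in Ret null gut and not passed at a deposited q under 0.05. The lists of transcription factors and of neuron products hold 10 and 14 falls, while the mesenchyme and epithelium lists hold 10 and 12 rises.

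Markers of the crest and of neighbouring tissues that could carry these genes were read in the same values. Of 12 enteric crest genes 10 fell and 2 did not pass, with a summed level of 61.1 FPKM in Ret null gut and 110.0 FPKM in wildtype gut. Tubb3, Prph and Elavl4 of this list are also in that of neuron products, and 2 others in that of transcription factors. The 2 that did not pass were Hoxb5, at 0.24, and Ednrb, a crest receptor, at 17.5 FPKM in Ret null gut and 18.8 FPKM in wildtype gut (-0.10 ± 0.19). Of 10 tested markers of the adrenogonadal region, which borders sympathetic precursors in the embryo, 4 fell and 2 rose, with summed levels of 102 FPKM in Ret null gut and 119 FPKM in wildtype gut. Among them Nr5a1, which marks the adrenal and gonadal primordium, fell to 3.52 FPKM in Ret null gut, against 11.1 FPKM in wildtype gut, and Emx2 and Wt1 had log2 fold changes of -1.84 and -0.78. The risers were Osr1, a factor of intermediate mesoderm that is also in the mesenchyme list, at 34.8 FPKM in Ret null gut and 18.8 FPKM in wildtype gut (0.89 ± 0.19), and the steroid enzyme gene Hsd3b1, named after its value was seen, at 2.85 FPKM in Ret null gut and 1.61 FPKM in wildtype gut (0.83 ± 0.46, q = 0.0411 in the authors' deposited table). All 9 tested somite and skeletal muscle markers fell, with summed levels of 6.26 FPKM in Ret null gut and 99.999 FPKM in wildtype gut, Myog, a myogenic factor, by -3.99. All 10 tested hepatic markers rose, with summed levels of 348 FPKM in Ret null gut and 34.4 FPKM in wildtype gut. Of 4 tested sensory and spinal neuron markers 2 fell and 2 rose, with summed levels of 18.3 FPKM in Ret null gut and 14.6 FPKM in wildtype gut, Ntrk2 at -1.08 and Isl2 at 1.30, and Olig2 was listed at 0 in both genotypes. The part of tissue bordering the gut in the values of Th, Dbh, Slc18a2, Gata2 and Insm1 was not tested.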

How the data were processed

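RNA came from dissected guts, was selected with oligo dT beads and sequenced from Illumina Tru Seq libraries with paired-end reads, per the labels' protocols and the series' design text, which state no strand setting. The submitters' processing notes name Picard, TopHat2, Cufflinks, Cuffdiff and the build mm10, and no version, setting or annotation is given in the sources used here. The authors deposited 1 FPKM value per genotype, a test statistic (a score: log2 fold change over its standard error), a p-value and a q-value per line, per the file headers. The columns are headed w and h, read as wildtype and homozygous null. No value per sample is used, so p-values rest on the authors' handling of 3 samples per genotype, whose independence the labels do not state, and depth and counting precision are unknown.

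Of 23234 lines, 1 with 2 records run together was left out, and the authors had not tested 9802. The FPKM values were divided again to give log2 fold changes, since the deposited column holds spreadsheet errors. The test was the authors' Cuffdiff q under 0.05; it equals a Benjamini-Hochberg adjustment of their p-values to within 5.94e-05. Starts were raised by 1. The normal p, two-sided, was adjusted by Benjamini-Hochberg over tested lines, a step tested on simulated data. Members, lists and motifs were chosen with earlier results of these data known. Named genes are the 10, all called genes of the lists of enzymes, transport, other transmitters, transcription factors and receptors, and in each other list from the 3 highest means and up to 2 calls with the smallest q; others are said to be named after their values were seen. Some genes that this rule names are not reported here. Python 3.11.15, pandas 2.3.3, numpy 2.4.6 and scipy 1.17.1 were used. Alternatives were q under 0.01 and 0.1, floors of 1 and 5 FPKM, a 1.5-fold minimum, the normal p, 1 and 0.1 FPKM added, and 2 other scalings.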

Additional observations from a re-analysis of the deposited data

How the results depend on the processing

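With 1 FPKM added, the log2 fold changes of Th, Dbh, Slc18a2 and Insm1 were -1.40, -1.48, -0.92 and -0.78. An equal amount added to both genotypes, 1 or 0.1 FPKM, cannot reverse a direction. FPKM rescaled to equal sums (a shift of -0.05 on the log2 scale) could not reverse these falls either. The same holds for centring on the median of lines at 5 FPKM or more (-0.02). Kept directions under these settings therefore show no stability. These settings change the fold change only and keep the deposited q, so they could not end a call. The normal p could, and with it Th, Dbh, Slc18a2 and Insm1 kept their calls. Gata2 (-0.63) and Hand2 (0.30) lost their calls with the normal p from the authors' test statistic, at adjusted p = 0.0545 for Gata2 and adjusted p = 0.537 for Hand2, and the cause was not tested. The count of higher members was 1 and became 0 at q under 0.01, with a 1.5-fold minimum and with the normal p. The 1192 lower and 764 higher calls over all tested lines became 702 and 456 with a 1.5-fold minimum and 373 and 231 with the normal p. At q under 0.01 the higher calls numbered 499, and with at least 5 FPKM the lower calls numbered 728, fewer lines being tested. Of the counts in the 16 gene lists under these alternatives, 154 stayed within 1.5 times and 38 moved further. Those that stayed include counts that were 0 under both rules, which show no stability. No replicate could be left out, since the table has no value per sample. No paired analysis was possible because the columns carry no replicate. Read depth is unknown, so what it limits could not be measured.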

Other observations

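Genes for other transmitters were low in these guts and mostly untested. Of 13 listed genes of acetylcholine, serotonin, histamine, amino acid and nitric oxide transmission 2 were tested. Ache, the enzyme that degrades acetylcholine, fell to 1.01 FPKM in Ret null gut, against 2.16 FPKM in wildtype gut (-1.10 ± 0.49, q = 0.00705 in the authors' deposited table), and did not pass with the normal p (adjusted p = 0.272). The vesicular acetylcholine transporter gene Slc18a3 stood at 0.273 FPKM in Ret null gut and 0.775 FPKM in wildtype gut and was not tested, and Chat, whose locus it shares, stood at 0.0677 FPKM in Ret null gut and 0.208 FPKM in wildtype gut (both named after their values were seen).

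Of 14 listed dopamine and adrenergic receptor genes 4 were tested, of which 1 rose and 3 did not pass. The error of Adra1d, 1 of these 3 and named after its value was seen, was wide (-0.61 ± 2.26). Adra2a, an inhibitory adrenergic receptor gene, rose to 3.51 FPKM in Ret null gut, against 1.74 FPKM in wildtype gut (1.01 ± 0.32, q = 0.00206 in the authors' deposited table), and passed with the normal p as well (adjusted p = 0.0389).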
